A study of Mus musculus with 6 samples.

Results

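Levels of 10 noncoding genes were examined in mouse breast cancer cells of the line 4T-1, with Lyplal1 knocked out (KO, n = 3 libraries) or wild type (WT, n = 3 libraries). All cells were untreated. Lyplal1 encodes a member of the acyl-protein thioesterase family, and the title of the series credits it with depalmitoylating the DNA sensor cGAS. The column names mark the KO libraries with one guide, sg2, and the WT libraries as NC. Whether the KO cells were a clone or a pool, and whether the 3 libraries of a group came from separate cultures, was not stated, so p-values measure the spread between these libraries only. The 10 genes were taken by symbol from the 55487 genes of the count table. They are 7 hosts of small nucleolar RNAs (Gas5, Snhg1, Snhg3, Snhg5, Snhg6, Snhg8 and Snhg12), the nuclear RNAs Malat1 and Neat1, and the imprinted RNA H19.

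A snoRNA host is a gene whose introns carry small nucleolar RNAs. The introns are cut out and trimmed to snoRNAs, which guide the chemical modification of ribosomal RNA, while the spliced exons often code for no protein and are degraded in the cytoplasm when ribosomes meet an early stop codon. Malat1 gathers in nuclear speckles, which hold splicing factors, and Neat1 is the scaffold of paraspeckles, nuclear bodies built on RNA. H19 is made from the maternal copy of a chromosome region shared with the growth factor gene Igf2, and its first exon holds the microRNA miR-675.

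Total counts were 16731209 to 16784906 in KO libraries and 17007616 to 17108975 in WT libraries. Of 13022 tested genes, 82.3% were called by edgeR's quasi-likelihood test at an adjusted p below 0.05, 41.3% as higher and 40.9% as lower in KO. Long noncoding RNA (lncRNA) genes were taken from the GENCODE M21 annotation of that class, which also holds some protein-coding genes. Among 1060 tested lncRNA genes, 73% were called, 24.6% as higher and 48.4% as lower in KO, and the median log2 fold change was -0.50. A call alone therefore sets no gene apart from the rest, and the sizes below are read beside these shares. Lyplal1 itself had 54, 48 and 58 counts in KO libraries, against 76, 73 and 68 counts in WT libraries, and was not called (log2 fold change -0.28 ± 0.15 SE, adjusted p = 0.0886), although limma-trend on log2(TPM + 1) called it lower at -0.44. Epithelial markers summed to 3074 to 3076 CPM (counts scaled to a common library size) in KO libraries and 3912 to 4024 CPM in WT libraries, with Krt5 at or near 0. Of the 7 tested, 5 fell and 1 rose, with a median log2 fold change of -0.62: Krt19 (-1.95), Epcam (-1.59) and Krt18 (-1.44) fell, and Krt7 (0.75) rose. KO replicate 3 stood apart from the other KO libraries. Its summed immune markers without Cd68 reached 17.8 CPM, against 1.88 and 3.06 CPM in the other KO libraries and 0.335 to 0.393 CPM in WT libraries. Since these are bulk samples, fewer cells of a type and less RNA per cell cannot be told apart.

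Of the 10 genes, 9 passed the filter on low counts and were tested. H19 passed it only through the WT libraries and could appear only as a fall. Gas5, Malat1, Snhg12, Snhg6, Snhg1 and Neat1 rose in KO, H19 fell, and Snhg5 and Snhg8 were not called. Snhg3 had too few counts to be tested. The median log2 fold change of the 9 tested genes was 0.61, beside -0.00 over all tested genes. CPM of the groups did not overlap for the 7 called genes. Since 82.3% of all tested genes were called and the share without overlap among them was not counted, this sets the 7 genes apart from no others. Together the 10 genes took 0.279%, 0.284% and 0.265% of all counts in KO libraries, against 0.160%, 0.174% and 0.163% in WT libraries. Another share of the counts also separated the groups: mitochondrial genes took 0.551%, 0.529% and 0.514% in KO libraries, against 1.89%, 1.85% and 1.80% in WT libraries. Its part in the values of the 10 genes was not tested.

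**Figure D1:**
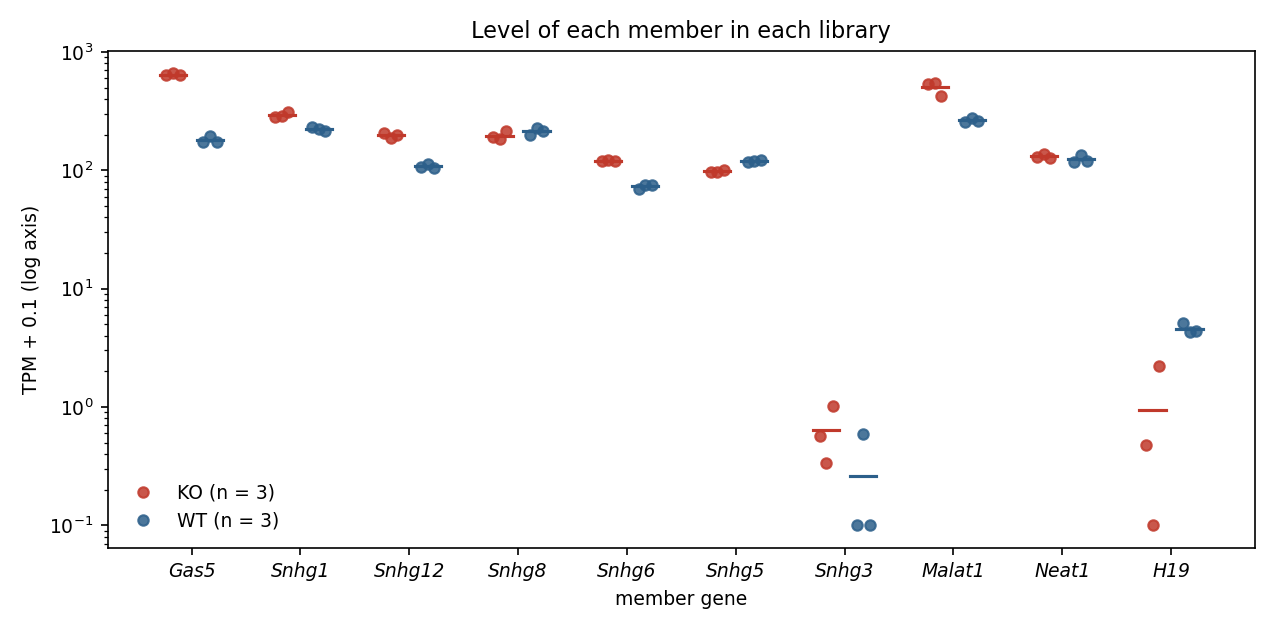
Deposited TPM plus 0.1 (log axis) of each gene in each library, with KO to the left of WT; points are libraries and bars are group means (n = 3 each). Gas5, Malat1, Snhg12, Snhg6 and Snhg1 stand clear of WT in every KO library, whereas Snhg3 and H19 lie far below the other 8.

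Abundance was compared as TPM, which divide counts by gene length. Ranks are among the 13125 genes of the lncRNA annotation, some protein-coding genes included. In KO, Gas5 ranked 4 and Malat1 ranked 5, followed by Snhg1 at 10, Snhg12 at 11, Snhg8 at 12, Neat1 at 15, Snhg6 at 16 and Snhg5 at 17. In WT, Malat1 ranked 4 and Gas5 ranked 10. Those 8 genes were abundant in both groups. In KO, Snhg12 and Snhg8 at 198 ± 8.82 and 196 ± 16.6 TPM did not differ beyond their spread, and neither did Snhg1 and Snhg8 in WT at 223 ± 8.70 and 215 ± 16.3 TPM, or Neat1 and Snhg5 in WT at 124 ± 8.19 and 120 ± 2.09 TPM (SD, n = 3 each). H19, with a mean of 0.835 TPM in KO and 4.49 TPM in WT, and Snhg3, with 0.544 TPM in KO and 0.162 TPM in WT, were low by this measure. Snhg3 shares much of its exon sequence with other genes, so its TPM may understate its RNA.

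Gas5 (growth arrest-specific 5; ENSMUSG00000053332, chr1:161034422-161038539, plus strand, GRCm38) showed the largest rise of the 9 tested genes. It accumulates in growth-arrested cells and carries snoRNAs with boxes C and D in its introns. Its counts were 10250, 10657 and 10551 in KO libraries, against 2723, 3037 and 2745 in WT libraries. Every KO library held more than 3 times the reads of any WT library. TPM averaged 644 ± 13.7 in KO and 180 ± 11.7 in WT (SD, n = 3 each). The rise was 4.13-fold (log2 fold change 2.05 ± 0.038 SE, adjusted p = 2.24e-25), and the log2 value lay between 1.84 and 2.10 in the 16 alternative analyses. By log2 fold change Gas5 ranked 49 of the 1060 tested lncRNA genes and 469 of all 13022 tested genes.

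Snhg12 (ENSMUSG00000086290, chr4:132308623-132311024, plus strand) had 2112, 1936 and 2114 counts in KO libraries, against 1068, 1123 and 1063 counts in WT libraries. It hosts Snora16a, Snora44, Snora61 and Snord99. The groups were far apart and the replicates tight. The rise was 2.12-fold (log2 fold change 1.08 ± 0.045 SE, adjusted p = 7.05e-18), with 198 ± 8.82 TPM in KO and 108 ± 3.65 TPM in WT (SD, n = 3 each).

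Snhg6 (ENSMUSG00000098234, chr1:9941959-9944118, minus strand), host of Snord87, had 595, 598 and 605 counts in KO libraries, against 332, 356 and 363 counts in WT libraries. Its KO libraries differed by less than those of any other tested host in TPM, at 121 ± 0.663, against 73.0 ± 3.40 in WT (SD, n = 3 each). The rise was 1.91-fold (log2 fold change 0.94 ± 0.062 SE, adjusted p = 1.79e-13). Of its exon bases, 11.1% overlap Mcmdc2 on the opposite strand, and whether counting used strand was not given.

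Snhg1 (ENSMUSG00000108414, chr19:8723475-8726443, plus strand) holds 8 annotated snoRNAs. It had 3603, 3667 and 4059 counts in KO libraries, against 2880, 2762 and 2668 counts in WT libraries. The rise was 1.52-fold (log2 fold change 0.61 ± 0.043 SE, adjusted p = 5.92e-12), with 294 ± 15.4 TPM in KO and 223 ± 8.70 TPM in WT (SD, n = 3 each). In KO Snhg1 lay below Gas5 in TPM, whereas in WT it lay above Gas5.

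Snhg5 (ENSMUSG00000097195, chr9:88521050-88522929, minus strand), host of Snord50a and Snord50b, was not called. Scaled for library composition, it had 94.2, 93.6 and 100.8 CPM in KO libraries, against 99.9, 102.7 and 104.1 CPM in WT libraries, and the groups overlapped. The log2 fold change was -0.09 ± 0.042 SE (adjusted p = 0.0551). This call depended on the scaling: in deposited TPM, KO libraries held 96.5, 96.1 and 100.3, against 117, 121 and 121 in WT libraries, and limma-trend on log2(TPM + 1) called the gene lower at -0.29. TPM carries a shift of -0.20 in the median of all genes relative to the scaled counts, and unscaled counts a shift of -0.14.

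Snhg8 (ENSMUSG00000104960, chr3:123507552-123508404, minus strand), host of Snora24, was not called in the 16 alternatives either. It had 43.5, 41.8 and 50.5 CPM in KO libraries, against 39.4, 45.9 and 43.7 CPM in WT libraries. The groups overlapped. The log2 fold change was 0.07 ± 0.068 SE (adjusted p = 0.317), and its sign turned with the scaling, to -0.13 on log2(TPM + 1).

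Snhg3 (ENSMUSG00000085241, chr4:132348014-132353686, minus strand), host of the H/ACA snoRNA gene Snora73a, was nearly silent in the count table. It had 2, 1 and 4 counts in KO libraries, against 0, 2 and 0 counts in WT libraries. The pooled ratio of KO to WT was 3.56 with an exact 95% interval of 0.678 to 35.1, covering counting error only. Of its exon bases, 29.8% are shared with genes on the same strand and 71.5% with genes on the opposite strand, Rcc1 and Gm17300 among them, so reads of this locus could have been counted to other genes or to none.

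The 7 hosts summed to 1529, 1535 and 1586 TPM in KO libraries, against 894, 953 and 906 TPM in WT libraries. Gas5 made up 41.6% ± 1.35 of that sum in KO and 19.6% ± 0.608 in WT (SD, n = 3 each). The shares did not overlap between the groups, and an exact two-sided permutation test gave p = 0.1, the smallest value that 3 against 3 libraries allow. The make-up of the host pool thus differed between the groups by more than the spread of the libraries, whatever the library scaling.

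**Figure D2:**
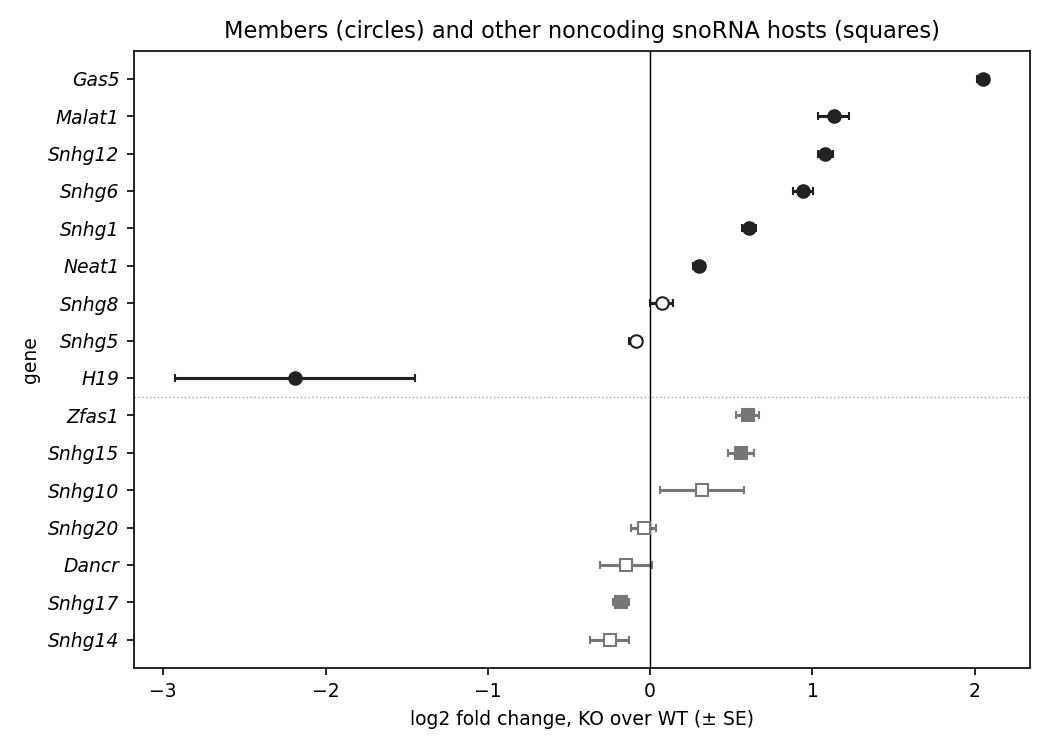
Log2 fold change, KO over WT, with its standard error for the 9 tested genes (circles) and the 7 tested genes of a list of other noncoding snoRNA hosts (squares); filled symbols were called. Gas5 lies at 2.05 and H19 at -2.19, and the other hosts lie between -0.25 and 0.60.

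The snoRNAs themselves could be read only poorly from these counts. Of 29 snoRNA genes annotated inside the 7 hosts, 28 had no count in any library. Snord87 inside Snhg6, which shares no base with the exons of its host, had 11 counts in KO and 16 counts in WT. Most of the 29 lie inside annotated exons of their host, so that the host shared 17.8% of its exon bases with other genes on its strand for Gas5, 20.9% for Snhg1, 19.6% for Snhg12, 15.2% for Snhg8 and 8.32% for Snhg5. How reads over such bases were assigned is not given in the labels or headers, so the missing counts are not read as absence of the snoRNAs. The host values are therefore not read as levels of the snoRNA products. Whether they hold some reads over snoRNA sequence is not known. Snord47 (chr1:161038082-161038158, plus strand) and Snord80 (chr1:161037601-161037681, plus strand) sit in Gas5, Snord99 (chr4:132310691-132310764, plus strand) in Snhg12, Snord87 (chr1:9942463-9942549, minus strand) in Snhg6 and Snord50a (chr9:88521529-88521600, minus strand) in Snhg5. They are shown from GENCODE M21 because they are the products that these hosts release, with the first TGATGA (box C) and the last CTGA (box D), the protein-binding signals of this class, in capitals.
Snord47: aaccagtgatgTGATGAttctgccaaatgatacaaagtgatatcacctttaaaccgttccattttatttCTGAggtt
Snord80: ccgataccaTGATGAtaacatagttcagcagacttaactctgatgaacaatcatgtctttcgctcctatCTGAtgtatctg
Snord99: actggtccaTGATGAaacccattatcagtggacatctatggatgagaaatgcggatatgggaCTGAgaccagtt
Snord87: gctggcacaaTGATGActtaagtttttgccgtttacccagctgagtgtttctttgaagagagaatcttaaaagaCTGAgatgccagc
Snord50a: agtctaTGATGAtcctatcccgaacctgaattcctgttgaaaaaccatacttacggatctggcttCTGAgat

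Hosts of this kind often begin with a C followed by a pyrimidine run, the terminal oligopyrimidine start that also marks ribosomal protein mRNAs and ties translation to growth signalling. In GENCODE M21, 6 of the 7 hosts had at least 1 transcript that starts with C and 4 further C or T bases. So did 2.87% of 13374 lncRNA genes and, by their protein-coding transcripts, 5.12% of 21901 protein-coding genes. A gene with more transcripts has more chances of 1 such start, and the 7 hosts have 72. By transcript, 12 of the 72 had it (16.7%), beside 2.14% of 58797 protein-coding transcripts. Snhg1 was the host without one. Starts of hosts that rose (Snhg12 and Snhg6), of one that was not called (Snhg5) and of one that was not tested (Snhg3) are shown with the leading pyrimidine run in capitals. Among transcripts tied for the most common start, a first C and then the longest run were favoured, so these are not typical starts. In all, 3 of 10 transcripts of Snhg12, 1 of 5 of Snhg6, 1 of 6 of Snhg5 and 1 of 5 of Snhg3 had one. Such starts were annotated for hosts that rose and for hosts that were not called. For Gas5, 5 of 25 transcripts had one, while Gas5-208, with the most transcripts starting within 10 bases (11), had a run of 3 bases. For Snhg8, 1 of 3 transcripts had one, while Snhg8-203, chosen alike, had a run of 3 bases.
Snhg12-208: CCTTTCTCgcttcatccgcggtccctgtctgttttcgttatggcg
Snhg6-203: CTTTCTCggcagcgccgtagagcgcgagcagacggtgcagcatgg
Snhg5-204: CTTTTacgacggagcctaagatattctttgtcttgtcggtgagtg
Snhg3-203: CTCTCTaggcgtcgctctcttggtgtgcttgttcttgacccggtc

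RefSeq promoter windows of 300 bases (250 before and 50 after the start, GRCm38.p6) were matched for 7 of the 10 genes, with 8 windows in all. Both strands were searched for TGACG, the core of the cyclic AMP response element, and for the full element TGACGTCA, which contains that core. TGACG was present in 4 of the 8 windows, those of Gas5, Malat1, Snhg12 and Snhg8, and in 20.8% of all 32851 windows. TGACGTCA was present in 1, that of Gas5, and in 1.79% of all windows. TATAAA was found for Snhg1, Snhg3, Snhg5 and Snhg8 and in 13.6% of all windows. CCAAT was found in 3 windows (37.4% of all) and ACGTG in 3 (19.6%), while CACGTG (7.15%), which contains ACGTG, and TGANTCA (7.81%) were found in none. A match describes letters only. The windows of Gas5 (chr1:161034916-161035215, plus strand), Snhg12 (chr4:132308428-132308727, plus strand) and Malat1 (chr19:5802623-5802922, minus strand), the 3 genes with the largest rises, are shown with that of Snhg5 (chr9:88522848-88523147, minus strand), which was not called; capitals mark TGACG, on either strand, and TATAAA.
Gas5: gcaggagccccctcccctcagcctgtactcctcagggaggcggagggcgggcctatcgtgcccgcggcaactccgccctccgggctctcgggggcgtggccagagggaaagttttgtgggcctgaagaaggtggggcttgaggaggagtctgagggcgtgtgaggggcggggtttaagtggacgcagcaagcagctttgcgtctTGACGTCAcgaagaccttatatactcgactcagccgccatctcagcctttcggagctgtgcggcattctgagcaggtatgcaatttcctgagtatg
Snhg12: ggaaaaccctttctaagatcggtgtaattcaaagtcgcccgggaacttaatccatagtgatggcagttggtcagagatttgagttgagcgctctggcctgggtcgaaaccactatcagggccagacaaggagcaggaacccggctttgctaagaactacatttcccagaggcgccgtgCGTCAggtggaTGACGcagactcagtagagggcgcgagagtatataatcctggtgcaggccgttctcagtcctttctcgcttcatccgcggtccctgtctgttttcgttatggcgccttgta
Malat1: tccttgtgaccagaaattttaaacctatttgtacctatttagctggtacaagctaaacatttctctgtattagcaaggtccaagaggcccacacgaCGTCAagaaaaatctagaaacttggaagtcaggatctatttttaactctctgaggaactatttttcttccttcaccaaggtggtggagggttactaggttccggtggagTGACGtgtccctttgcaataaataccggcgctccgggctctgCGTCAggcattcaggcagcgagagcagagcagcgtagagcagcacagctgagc
Snhg5: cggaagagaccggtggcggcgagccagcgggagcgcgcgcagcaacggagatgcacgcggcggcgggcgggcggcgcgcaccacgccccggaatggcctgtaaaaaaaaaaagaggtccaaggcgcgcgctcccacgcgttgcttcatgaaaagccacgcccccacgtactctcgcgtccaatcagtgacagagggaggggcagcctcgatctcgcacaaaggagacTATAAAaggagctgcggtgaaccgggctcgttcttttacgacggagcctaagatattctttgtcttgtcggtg

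Other noncoding snoRNA hosts did not share the rises of Gas5 and Snhg12 in size. Of 13 listed, 10 had an entry and 7 were tested; 2 rose, 1 fell and 4 were not called, with a median log2 fold change of -0.04. Zfas1, which hosts C/D snoRNAs, rose by 0.60 ± 0.069 (log2 ± SE, adjusted p = 1.44e-05) and Snhg15 rose by 0.56 ± 0.080 (adjusted p = 4.71e-07). Snhg17 was called lower at -0.18 ± 0.047 (adjusted p = 8.79e-04). The uncalled values were 0.32 for Snhg10, -0.04 for Snhg20, -0.15 for Dancr and -0.25 for Snhg14. With unscaled counts 3 of the 7 were called lower.

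Protein-coding snoRNA hosts gave 15 of 20 higher and 3 lower, with a median log2 fold change of 0.25. Over all tested genes 41.3% were called higher and 40.9% lower, with a median of -0.00. Hspa9 (1.22), a mitochondrial chaperone, Eif4a2 (1.03), a translation initiation helicase, Dkc1 (0.66) and Hspa8 (0.56) rose. On TPM, 9 of these 20 were called higher. Proteins of the snoRNA particles and their assembly factors gave 14 of 18 higher and 3 lower, with a median of 0.38. Nufip1 (0.95), an assembly factor, Nhp2 (0.87) and Dkc1 (0.66), which belong to the H/ACA particle, and Nop56 (0.35), a core protein of the C/D particle, rose. Of 16 factors of nonsense-mediated decay, the pathway that degrades spliced Gas5, 7 rose and 4 fell, with a median of 0.06. Rbm8a (0.55), a subunit of the exon junction complex, rose, whereas the endonuclease gene Smg6 (-1.05) and the exonuclease gene Xrn1 (-0.54) fell. On TPM the same list gave 3 higher and 9 lower.

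Malat1 (ENSMUSG00000092341, chr19:5795690-5802672, minus strand) and Neat1 (ENSMUSG00000092274, chr19:5824708-5845478, minus strand) lie 22035 bases apart. Malat1 had 16184, 16296 and 13118 counts in KO libraries, against 7489, 8077 and 7721 counts in WT libraries. KO replicate 3, the library that stood apart in marker sums, was the lowest of the KO libraries and still far above WT. Malat1 rose 2.19-fold (log2 fold change 1.13 ± 0.097 SE, adjusted p = 1.42e-04), and the value was 1.23 without KO replicate 3. TPM averaged 503 ± 65.7 in KO and 265 ± 10.8 in WT (SD, n = 3 each).

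Neat1 had 11653, 12362 and 11661 counts in KO libraries, against 10282, 11565 and 10526 counts in WT libraries. On the scaled counts it rose 1.23-fold (log2 fold change 0.30 ± 0.039 SE, adjusted p = 2.87e-07). On deposited TPM it did not pass the test: levels were 131, 138 and 128 TPM in KO libraries, against 118, 133 and 121 TPM in WT libraries, with a log2 difference of 0.09 (limma-trend, adjusted p = 0.116). The groups overlapped in TPM. The short and long forms of Neat1 share their start, and gene counts cannot tell them apart.

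The ratio of Malat1 to Neat1, free of library scaling, was 4.13, 3.92 and 3.35 in KO libraries, against 2.17, 2.08 and 2.18 in WT libraries (TPM over TPM). All 3 KO libraries were above all 3 WT libraries (exact two-sided permutation test, p = 0.1, the smallest possible). So the neighbouring RNAs changed by unequal amounts. Malat1 and the long form of Neat1 are known to end not in an added poly(A) tail but at a cut made by RNase P after an A-rich tract encoded in the genome. The last 100 bases up to that tract, a run of A bases followed by GCAAAA that occurs once in each transcript and is in capitals, are shown because the ends are alike while the changes were not (Malat1 chr19:5795982-5796081, Neat1 chr19:5824708-5824807, both minus strand). The Malat1 annotation runs 292 bases beyond the tract.
Malat1-201: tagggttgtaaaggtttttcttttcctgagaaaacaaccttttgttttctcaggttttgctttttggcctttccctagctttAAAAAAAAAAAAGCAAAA
Neat1-201: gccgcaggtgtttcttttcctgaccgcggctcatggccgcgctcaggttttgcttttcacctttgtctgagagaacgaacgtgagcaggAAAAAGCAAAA

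Of 14 paraspeckle proteins and factors of Neat1 3′ end choice, 8 were lower and 4 higher, beside 40.9% and 41.3% of all tested genes. Their median log2 fold change was -0.25, and on TPM 1 was called higher. Sfpq, a core paraspeckle protein, had 1370, 1297 and 1251 counts in KO libraries, against 4971, 5007 and 5123 counts in WT libraries (log2 fold change -1.79 ± 0.039 SE, adjusted p = 2.94e-24). Pspc1 (-1.47), another paraspeckle protein, Nudt21 (-1.65), a cleavage factor known from human cells to promote the short form, and Hnrnpm (-1.39) also fell. For nuclear speckle proteins and Malat1 3′ end factors, 8 of 18 tested were higher and 7 lower, with a median of -0.06. The splicing factors Srsf1 (-0.92) and Srsf3 (-0.69) fell, while Rpp21 (1.19), a subunit of RNase P, and Elac2 (0.82), the nuclease that trims transfer RNA 3′ ends, rose.

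**Figure D3:**
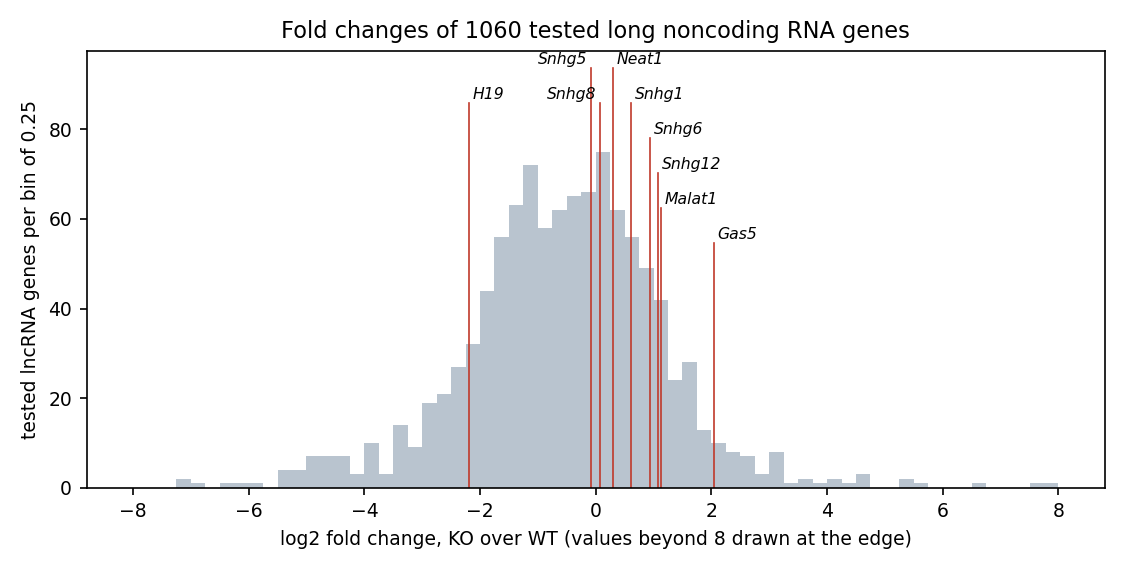
Distribution of log2 fold changes, KO over WT, of the 1060 tested lncRNA genes in bins of 0.25, with vertical lines at the 9 tested genes. The lncRNA median is -0.50; Gas5, Malat1, Snhg12, Snhg6, Snhg1 and Neat1 lie to its right and H19 to its left.

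H19 (ENSMUSG00000000031, chr7:142575529-142578143, minus strand) was the only one of the 9 tested genes called lower. It had 4, 0 and 23 counts in KO libraries, against 52, 43 and 44 counts in WT libraries. Because H19 passed the filter on low counts only through the WT libraries, it could appear only as a fall. The direction of its call is therefore not read as a result. The groups did not overlap, but the KO libraries were far apart from one another. The fall was 4.56-fold (log2 fold change -2.19 ± 0.74 SE, adjusted p = 0.0364). This call was not stable: DESeq2 gave an adjusted p of 0.125 and leaving out single libraries gave adjusted p-values of 4.13e-11 to 0.116. Without KO replicate 3 the log2 fold change was -4.29 (adjusted p = 4.13e-11).

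The KO library with the most H19 also had the highest marker sums once Cd68 and Pdgfra were set aside. In KO libraries, H19 stood at 0.25, 0 and 1.45 CPM, immune markers without Cd68 summed to 1.88, 3.06 and 17.8 CPM, and fibroblast and endothelial markers without Pdgfra summed to 2.88, 2.75 and 15.9 CPM. In WT libraries H19 stood at 2.90, 2.41 and 2.47 CPM, while the immune sum was 0.335, 0.336 and 0.393 CPM and the fibroblast and endothelial sum 4.02, 3.59 and 4.67 CPM. Cd68 and Pdgfra were set aside because all KO libraries carried them at high levels, as the sums with them show (immune 467, 443 and 500 CPM in KO, against 8.65, 8.41 and 8.38 CPM in WT; fibroblast and endothelial 181, 173 and 177 CPM in KO, against 70.2, 67.3 and 68.5 CPM in WT). Of the 9 immune markers, 8 had a count in KO replicate 3, against 3 and 5 in the other KO libraries and 2 to 5 in WT libraries. All 10 fibroblast and endothelial markers had a count in KO replicate 3, against 9 in each of the other KO libraries and 5 or 6 in WT libraries. Their part in the H19 value of KO replicate 3 was not tested.

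**Figure D4:**
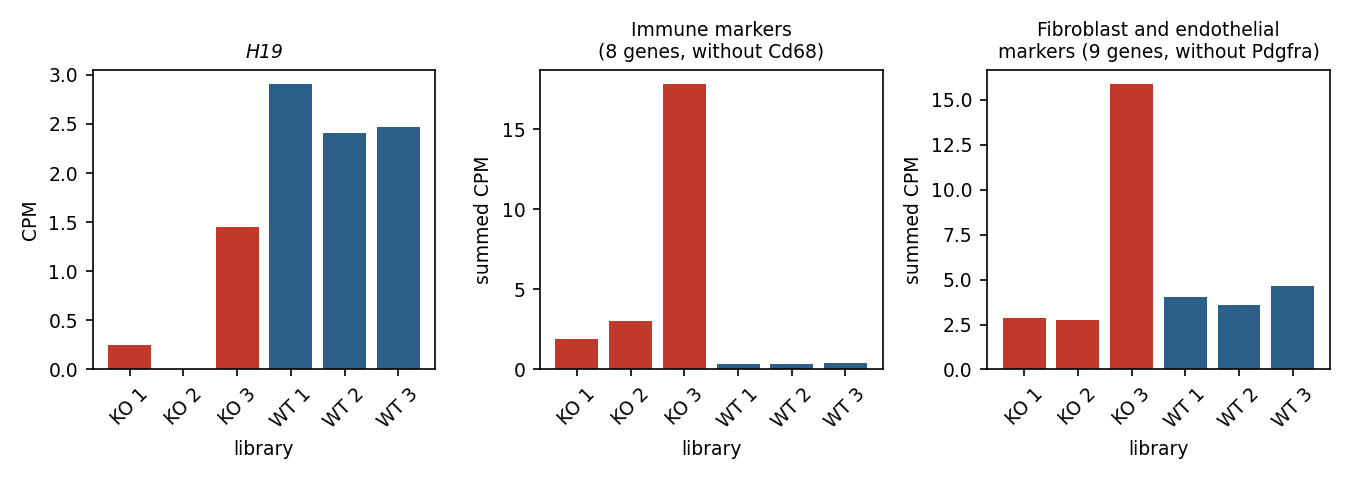
CPM of H19 (left) and summed CPM of immune markers without Cd68 (middle) and of fibroblast and endothelial markers without Pdgfra (right) in each library, KO first and WT after. KO replicate 3 has the highest H19 of the KO libraries, 1.45 CPM, and the highest marker sums of all 6 libraries, 17.8 and 15.9 CPM.

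The hairpin of miR-675, which lies inside H19, had no count in any library. All 84 of its bases are shared with H19 exons, and how reads over such bases were assigned is not given. The missing counts are therefore not read as absence of miR-675. Its 5′ arm (chr7:142577112-142577133, minus strand, RefSeq on GRCm38.p6) is shown with the seed, bases 2 to 8, in capitals, as the product that H19 carries.
mmu-miR-675-5p: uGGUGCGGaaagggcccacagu

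Genes linked to H19 by imprinting or position could be tested only in part. Of 20 listed, 8 were tested, 5 of them lower and 2 higher, with a median log2 fold change of -1.14. Shares over all tested genes were 40.9% lower and 41.3% higher. Some of the 8, Mest among them, passed the filter on low counts only through WT libraries and could appear only as falls. The counts and the median are therefore not read as a trait of the list. Igf2, the imprinted partner of H19, had no count in any library. Igf2r, the imprinted receptor that clears IGF2, had 3452, 3311 and 3188 counts in KO libraries, against 11170, 11312 and 11227 counts in WT libraries (log2 fold change -1.60 ± 0.034 SE, adjusted p = 1.73e-24). Mest, an imprinted hydrolase gene, had 1, 1 and 0 counts in KO libraries, against 50, 47 and 30 counts in WT libraries, a pooled ratio of KO to WT of 0.0160 with an exact 95% interval of 0.00192 to 0.0591. Lsp1 (-1.94), from the same region of chromosome 7, and Ctcf (-0.69), which binds the H19 control region, also fell. Of 8 tested H19 binding partners and microRNA processing factors, 3 were higher and 4 lower. Dgcr8 (-1.99), a subunit of the microRNA Microprocessor, Igf2bp1 (-0.73) and Khsrp (-0.37) fell, and Elavl1 (0.28) was called higher, though not on TPM (0.07).

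The nearest tested gene on each side shows whether a change was shared by the neighbourhood. Of 16 such neighbours of the 9 tested genes, the 10 genes themselves left out, 9 rose, 6 fell and 1 was not called. Among all tested genes, 41.3% were called higher and 40.9% lower. Slc3a2, an amino acid transporter subunit, starts 106 bases from Snhg1 on the opposite strand, and rose by 1.16 ± 0.040 (log2 ± SE), beside 0.61 for Snhg1. Zbtb37, a zinc finger gene that overlaps the start of Gas5 on the opposite strand, rose by 0.60 ± 0.066, beside 2.05 for Gas5. Trnau1ap, a selenocysteine tRNA-associated protein gene that ends 738 bases from the end of Snhg12, rose by 1.17 ± 0.064, beside 1.08 for Snhg12, and Taf12 on the other side rose by 0.59.

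Elsewhere the neighbours went other ways than the lncRNA. Next to Neat1, which rose, Frmd8 fell (-0.70). Both neighbours of Snhg5 fell, the RNA-binding protein gene Syncrip (-0.99) and the zinc finger gene Zfp949 (-1.33), whereas Snhg5 was at -0.09. Snhg8, at 0.07, lay between Prss12, a serine protease gene that fell (-2.72), and Ndst3, which rose by 0.86. Snhg6 lay between Sgk3, a kinase gene that fell (-0.35), and Cops5, a signalosome subunit gene that rose by 0.67. Next to H19, Mrpl23 was called higher at 0.45, a call lost on TPM and with DESeq2, and R74862 was not called (-0.35).

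**Figure D5:**
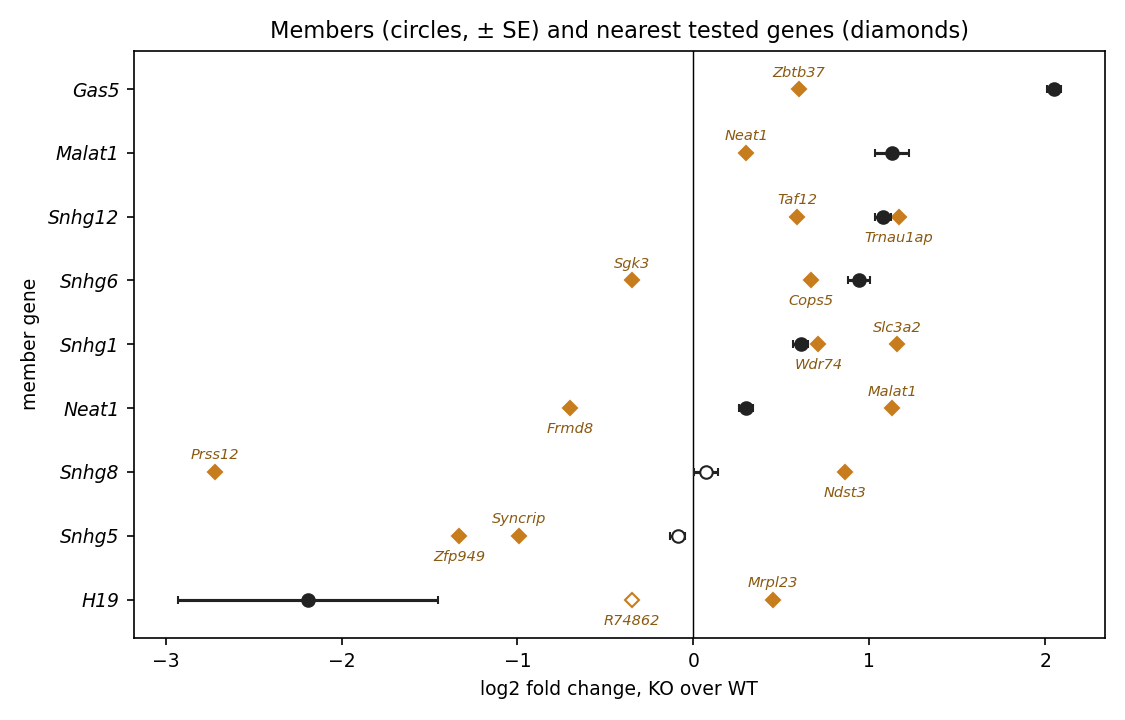
Log2 fold change, KO over WT, of the 9 tested genes (circles, ± SE) and of the nearest tested gene on each side (labelled diamonds, some of them not drawn); open symbols were not called. Gas5 at 2.05 lies beyond Zbtb37 at 0.60, and Snhg1 at 0.61 lies below Slc3a2 at 1.16.

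Other long noncoding RNAs moved in both directions, with 5 of 15 tested higher, 7 lower and a median log2 fold change of 0.10. Among all tested lncRNA genes, 24.6% were called higher and 48.4% lower. Pvt1 (0.83) and Firre (0.68) rose, and Tug1 (-0.66) and Mir22hg (-2.46), host of a microRNA, fell. Short RNAs without a poly(A) tail were nearly absent: the 8 of 9 listed with an entry had 0 to 10 counts in each library and none was tested.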

How the data were processed

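RNA was measured in 6 libraries of untreated 4T-1 cells (KO and WT, n = 3 each). Per the labels' protocols, Trizol RNA went into DNBseq quantification libraries. STAR 2.7.8a, featureCounts 2.0.1 and GRCm38 appear in the submitters' processing notes; strand, multi-mapping and annotation settings are not given there. The authors deposited gene counts (55487 genes, whole numbers) and TPM, which were those counts over gene length, scaled.

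Genes were matched by identifier to GENCODE M21 (55227 matched). Counts were filtered with filterByExpr, scaled with TMM and tested with edgeR 4.0.16 (robust quasi-likelihood, two-sided, Benjamini-Hochberg over 13022 genes, adjusted p below 0.05); CPM are TMM-scaled. Replicate numbers were not used as pairs. The 16 alternatives were RLE, upper-quartile or no scaling, no filter, 1 CPM in 3 libraries, DESeq2 1.42.0, limma-voom and limma-trend (limma 3.58.1) on log2(TPM + 1) and log2(TPM + 0.1), a replicate block, and leaving out each library. The test was also run on simulated counts in which few genes changed. That setting does not check it for data in which 82.3% of tested genes are called, as here. Members and the 13 other lists, markers included, were chosen with earlier results of these data known. The text names all 10 members, tested noncoding hosts, nearest tested neighbours, Lyplal1, and from each other list up to 4 called genes with the smallest adjusted p. A few genes within that naming rule are not reported. Promoters and the microRNA come from RefSeq tables.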

Additional observations from a re-analysis of the deposited data

How the results depend on the processing

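Gas5, Malat1, Snhg12, Snhg6 and Snhg1 stayed higher and called in all 16 alternatives; over them the log2 fold changes were 1.84 to 2.10, 0.91 to 1.23, 0.87 to 1.13, 0.72 to 0.96 and 0.40 to 0.65. Neat1 fell below the threshold on log2(TPM + 1) and log2(TPM + 0.1), at 0.09 on both. H19 lost its call with DESeq2 (-2.20) and with the replicate block (-2.21, adjusted p = 0.0581), and ranged over -4.29 to -1.60 with single libraries left out; its adjusted p was 0.0781 without KO replicate 1, 0.116 without WT replicate 1, 0.0954 without WT replicate 2 and 0.114 without WT replicate 3. Snhg5 became lower and called with RLE factors (-0.09), upper-quartile factors (-0.22), unscaled counts (-0.22), the 1 CPM filter (-0.10), log2(TPM + 1) (-0.29), log2(TPM + 0.1) (-0.30) and the replicate block (-0.09), with -0.11 to -0.06 over left-out libraries; it was called without KO replicate 3 and without WT replicate 1. Snhg8 turned negative with upper-quartile factors (-0.06), unscaled counts (-0.06), both TPM scales (-0.13) and without KO replicate 3 (-0.00), with 0.14 at the other end of the left-out range, and Snhg20 turned to 0.03 without WT replicate 3. The number of the 9 tested genes called lower, 1 in the reported test, was 2 with RLE factors, upper-quartile factors, unscaled counts, the 1 CPM filter and both TPM scales, 0 with DESeq2, 1 with the replicate block, and 0 to 2 with single libraries left out.

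Genes called higher and lower numbered 5382 and 5329 in all, and 5430 and 5368 with the replicate block, whose same-numbered libraries did not deviate together (r = -0.00742, 0.0416 and 0.0132 over 13022 genes). Of the calls, 50.2% were higher in the reported test, against 38.5% on either TPM scale, 42.8% with upper-quartile factors and 42.6% unscaled, where the median of all genes shifted by -0.20 to -0.21, -0.13 and -0.14.

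Among the lists, both TPM scales gave 9 higher and 6 lower protein-coding hosts (15 and 3 reported), 3 higher and 9 lower decay factors (7 and 4 reported), 1 higher paraspeckle factor (4 reported), 0 higher H19 partners (3 reported), 0 higher imprinted-network genes (2 reported) and 3 lower other noncoding hosts (1 reported). Upper-quartile factors and unscaled counts each gave 5 lower protein-coding hosts, 4 higher decay factors, 1 higher imprinted-network gene and 3 lower other noncoding hosts. The imprinted network had 5 higher with no filter, where 17 of its genes were tested, 1 higher with DESeq2 and 1 to 2 over left-out libraries. Other noncoding hosts had 2 lower with the 1 CPM filter and the replicate block, and 1 to 2 over left-out libraries. Apart from the alternatives' own scaling and filters, the causes were not tested.

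Depth limits H19 (0 to 52 counts per library) and Snhg3 (0 to 4), and intervals cover counting error only. KO replicate 3 differed from the other KO libraries by more (chi-square per gene 3.48 and 3.74) than they did from each other (1.83), all beyond counting noise alone.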
